A study of Mus musculus with 24 samples.

Results

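The 5 orphan nuclear receptor genes followed here from embryonic stem cells to neurons were Nr2f1, Nr2f2, Nr2f6, Nr6a1 and Nr2e1. They were chosen by gene symbol and make up 5 of the 22667 genes listed in the expression table. All 5 passed the filter on low counts, Nr2e1 through its counts in neurons and in slow/slow PSA-NCAM+ cells. Poly(A)+ RNA had been sequenced from mouse embryonic stem cells (ESCs), from day 7 neural progenitor cells (NPCs), from day 10 cells that carry polysialic acid on the adhesion molecule NCAM (PSA-NCAM+ cells), and from neurons that had been replated at day 7 and grown for 14 more days. Wild-type (WT) and slow/slow cells gave 3 replicates each at every stage, or 24 samples in all. Slow/slow cells carry an arginine-to-histidine substitution on both alleles of Polr2a, which encodes the catalytic subunit of RNA polymerase II, and the study describes this enzyme as elongating slowly. They form a single line made by targeting one allele after the other, so genotype and cell line cannot be told apart. For NPCs and PSA-NCAM+ cells the labels give a plating density of 10000 cells per cm2 for WT and 30000 for slow/slow cells, so density and genotype cannot be told apart at these stages either. For neurons, which were replated from day 7 cultures, the labels give no density, and a part of the starting density was not tested. The day 10 PSA-NCAM+ cells were thus not the source of these neurons, and a change between them is no step of a single course. The comparisons ask how the level of each receptor changed along differentiation and whether it differed in cells with the slow polymerase.

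Nuclear receptors are transcription factors with a DNA-binding domain of paired zinc fingers and a domain that in many members binds a lipophilic ligand. Those called orphan were found without a known natural ligand. Nr2f1 and Nr2f2 encode COUP-TFI and COUP-TFII, regulators of regional identity in the developing brain, and COUP-TFII also acts in mesenchyme, veins and lymphatic vessels. Nr2f6 encodes EAR2, a relative of the COUP-TFs. Nr6a1 encodes GCNF, a repressor of the pluripotency gene Pou5f1 as stem cells differentiate. Nr2e1 encodes TLX, which keeps neural stem cells of the forebrain and retina in an undifferentiated state.

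The relationship of the members can be read from the bases that code for the first zinc finger, which carries the P-box, the short stretch that contacts the DNA half-site. The sequences below were taken from GENCODE transcripts of the GRCm38 assembly and run 5′ to 3′ over 81 bases, with the P-box codons in capitals. They are shown so that the P-boxes of the members can be compared.
Nr2f1: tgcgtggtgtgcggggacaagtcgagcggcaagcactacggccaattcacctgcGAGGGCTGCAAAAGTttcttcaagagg
Nr2f2: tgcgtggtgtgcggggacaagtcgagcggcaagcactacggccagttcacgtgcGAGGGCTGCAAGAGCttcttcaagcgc
Nr2f6: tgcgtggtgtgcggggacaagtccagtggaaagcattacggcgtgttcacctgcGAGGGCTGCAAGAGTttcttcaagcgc
Nr6a1: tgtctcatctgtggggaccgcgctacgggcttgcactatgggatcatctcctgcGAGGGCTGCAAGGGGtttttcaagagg
Nr2e1: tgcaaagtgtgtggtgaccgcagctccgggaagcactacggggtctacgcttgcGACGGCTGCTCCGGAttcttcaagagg
Nr2f1 and Nr2f2 shared 92.6% of these bases, and Nr2f6 shared 87.7% with Nr2f1 and 90.1% with Nr2f2. Nr6a1 shared 67.9% with Nr2f1, and Nr2e1 shared 66.7% with it. Within the P-box Nr2f1, Nr2f2 and Nr2f6 differed from each other by 1 or 2 bases, Nr6a1 differed from these 3 by 2 or 3 bases, and Nr2e1 by 6. In the encoded amino acids the P-boxes of Nr2f1, Nr2f2 and Nr2f6 differed by 0 residues. Nr6a1 differed from them by 1 residue and Nr2e1 by 3. Close relatives could in principle share reads, but only 10 of the 5090 distinct runs of 50 bases in Nr2f1 transcripts also occurred in Nr2f2 transcripts.

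In GRCm38 all 5 genes lie on the minus strand. Nr2f1 (ENSMUSG00000069171) spans positions 78188973 to 78199757 of chromosome 13, Nr2f2 (ENSMUSG00000030551) 70351944 to 70366735 of chromosome 7, and Nr2e1 (ENSMUSG00000019803) 42561963 to 42583632 of chromosome 10. Nr6a1 (ENSMUSG00000063972) is the long member, at 204.3 kb from 38723370 to 38927688 of chromosome 2. Nr2f6 (ENSMUSG00000002393) spans 71374123 to 71381960 of chromosome 8 and overlaps the coding gene Ocel1 on the other strand over 54.4% of its exonic bases. The use of strand in counting was not stated, so the Nr2f6 counts are uncertain and are set beside its spliced reads below. For Nr2f1 and Nr2f2, exonic overlap with noncoding genes on the other strand came to 2.4% and 7.5%, and for Nr6a1 and Nr2e1 the overlap was 0 bases or no gene overlapped.

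Between 32974432 and 104466886 reads were counted per sample. Levels are given as TMM-scaled CPM, which are counts relative to library size after scaling between libraries by the trimmed mean of M-values. Log2 changes set slow/slow against WT cells and carry the standard error (SE) of edgeR's quasi-likelihood test, and a gene was called at a Benjamini-Hochberg FDR under 0.05 over all 16627 genes tested. The study states that 3 independent differentiation experiments were made. The summed level of 6 ESC markers was 5640 to 6097 CPM in WT ESCs, 2067 to 2147 in WT NPCs, 1425 to 1970 in WT PSA-NCAM+ cells and 102 to 131 in WT neurons, so RNA of these markers was still abundant at the middle stages. The summed level of 5 neuron markers was 1497 to 1605 CPM in WT neurons and 1276 to 1456 in slow/slow neurons, against at most 229 at any earlier stage. Neural progenitor markers summed to 400 to 407 CPM in WT ESCs, 273 to 289 in WT NPCs and 195 to 255 in WT PSA-NCAM+ cells. In WT ESCs most of that sum was Sox2, with a mean of 385 CPM, and only 2 of the 5 markers averaged over 1 CPM. Of the 5 tested, 3 rose from WT ESCs to NPCs and 1 fell, and over all genes 34% rose and 31.6% fell. From WT NPCs to PSA-NCAM+ cells, where 21.8% of all genes rose, all 4 PSA-NCAM markers rose. Their sum there was only 28.9 to 32.7 CPM, against 1783 to 1884 in WT neurons. At the PSA-NCAM+ stage replicate 1 of both genotypes deviated from its group mean in a like way across genes (r = 0.54). Without slow/slow replicate 1 the genes called between genotypes rose in number from 9424 to 11583. Results there were therefore also computed without replicate 1 of both genotypes, a choice made after seeing the data.

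Per unit of length the members differed widely in level. The authors' mean RPKM, a value per kilobase whose unit was inferred from its scale because the header does not name it, was 13.5 for Nr6a1 and 9.54 for Nr2f6 in WT ESCs, against 0.433 for Nr2f1, 0.347 for Nr2f2 and 0.01 for Nr2e1. In WT neurons the order had changed. Nr2f1 then led with an authors' mean of 45.9 RPKM, followed by Nr2f6 at 22.95, Nr2f2 at 18.96 and Nr6a1 at 14.1, while Nr2e1 stayed low at 0.133.

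**Figure D1:**
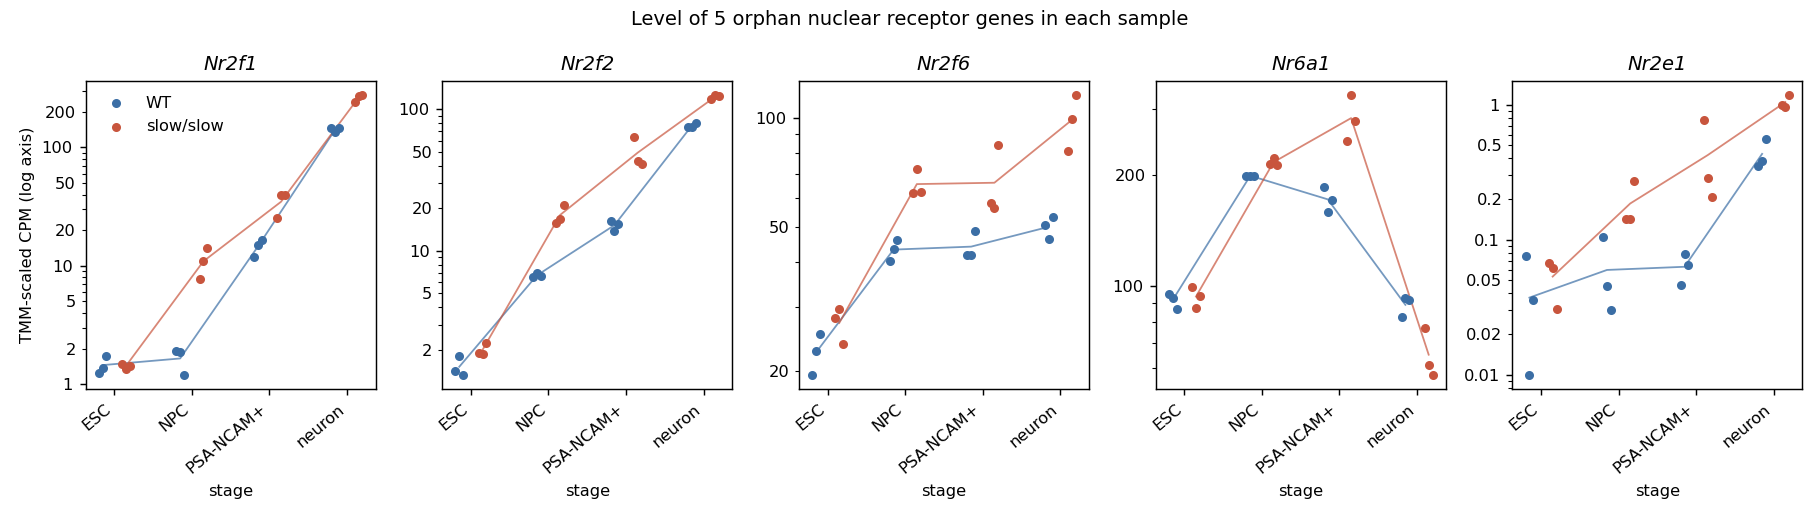
TMM-scaled CPM on a log axis of the 5 members at the 4 stages, 1 point per sample with lines through the group means (3 samples per group); the Nr2e1 sample without a count is drawn at 0.01. In slow/slow cells Nr2f1 and Nr2f2 are lowest in ESCs, then NPCs, then PSA-NCAM+ cells, and highest in neurons. Nr6a1 peaks at the middle stages, and the slow/slow neurons lie above WT for every member except Nr6a1.

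Nr2f1 was the member with the steepest rise along differentiation, and in slow/slow cells a rise was already called in NPCs. In WT cells its 3 samples stood at 1.25, 1.38 and 1.72 CPM in ESCs and at 1.89, 1.86 and 1.20 in NPCs. These ranges overlapped, and the stages did not differ beyond their spread (log2 change 0.18 ± 0.24, FDR 0.539). WT PSA-NCAM+ cells reached 11.9, 15.0 and 16.5 CPM, a log2 rise of 3.14 ± 0.22 over NPCs (FDR 4.37e-09). WT neurons held 146, 135 and 145 CPM. They lay 6.44 ± 0.24 above NPCs (FDR 2.61e-15) and 3.30 ± 0.20 above PSA-NCAM+ cells (FDR 6.36e-12) on the log2 scale. Slow/slow ESCs held 1.49, 1.35 and 1.42 CPM, inside the WT range. In slow/slow NPCs the values were 7.79, 11.0 and 14.0 CPM, all above every WT NPC sample. That step from ESCs was 2.93 ± 0.23 on the log2 scale (FDR 9.22e-10), where WT cells had shown no called change. Slow/slow PSA-NCAM+ cells followed with 25.3, 39.5 and 39.4 CPM and slow/slow neurons with 242, 271 and 277 CPM, again above every WT sample of the stage.

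The genotype difference in Nr2f1 was thus widest in NPCs. It was -0.03 ± 0.26 in ESCs (FDR 0.952), 2.73 ± 0.22 in NPCs (FDR 5.61e-09), 1.27 ± 0.19 in PSA-NCAM+ cells (FDR 1.24e-05) and 0.89 ± 0.18 in neurons (FDR 0.000436). As a ratio, slow/slow NPCs held 6.62 times and slow/slow neurons 1.86 times the WT level. The log2 change of NPCs was larger than that of ESCs by 2.75 ± 0.34, which passed the interaction test (FDR 7.59e-06). The signed change in NPCs was higher than that of 98.2% of all genes tested, and its rank by absolute size was 611 of 16627.

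Nr2f2 climbed more evenly. WT samples held 1.41, 1.81 and 1.33 CPM as ESCs and 6.51, 6.96 and 6.66 as NPCs. They reached 16.4, 13.9 and 15.4 as PSA-NCAM+ cells and 75.4, 75.7 and 80.1 as neurons. No 2 stages overlapped. The log2 rise was 2.16 ± 0.16 from ESCs to NPCs (FDR 5.79e-10) and 1.18 ± 0.14 from NPCs to PSA-NCAM+ cells (FDR 3.73e-06). Neurons lay 3.52 ± 0.15 above NPCs (FDR 2.27e-14) and 2.34 ± 0.14 above PSA-NCAM+ cells (FDR 6.92e-12). Slow/slow samples held 1.90, 1.86 and 2.23 CPM as ESCs and 15.8, 16.9 and 21.2 as NPCs, then 64.3, 43.1 and 41.1 as PSA-NCAM+ cells and 118, 127 and 125 as neurons. At each stage all slow/slow samples lay above all WT samples.

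In ESCs that difference was small and was not called (log2 change 0.41 ± 0.18, FDR 0.0715). It passed when WT ESC replicate 2, the WT sample nearest to the slow/slow values, was left out (0.55, FDR 0.0332), and over all alternatives its FDR ran from 0.0332 to 0.207. The change in Nr2f2 was 1.42 ± 0.14 in NPCs (FDR 1.25e-07), 1.70 ± 0.14 in PSA-NCAM+ cells (FDR 7.27e-09) and 0.68 ± 0.14 in neurons (FDR 0.000354). Slow/slow PSA-NCAM+ cells thus held 3.25 times the WT level.

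In bulk RNA a higher share of cells that express a gene and more RNA per cell cannot be told apart, and marker genes of several cell types moved beside the COUP-TFs. Of 5 neural progenitor markers tested, 4 were higher in slow/slow NPCs and 0 lower, as were 4 of 5 neuron markers and 4 of 4 PSA-NCAM markers, while 5 of 6 ESC markers were lower and 0 higher. In PSA-NCAM+ cells, where the change in Nr2f2 was largest, 5 of 5 neural progenitor markers and 5 of 5 neuron markers were higher, with median log2 changes of 3.87 and 1.54, and 4 of 6 ESC markers were lower. The summed level of the progenitor markers there was 455 to 599 CPM in slow/slow against 195 to 255 in WT cells. In neurons 9 of 11 mesenchyme and endothelium markers were higher in slow/slow cells and 1 lower, and their summed level was 711 to 774 CPM against 293 to 373 in WT neurons. Cdh5, the cadherin of endothelial cells, averaged 70.5 CPM ± 7.41 (SD, n = 3) against 2.80 CPM ± 0.554, and Pdgfra, a receptor of mesenchymal and glial precursor cells, 40.9 CPM ± 11.1 against 9.74 CPM ± 0.995, both named after their values were seen. In the same comparison 4 of 5 neuron markers were lower and 0 higher, and all 3 neural crest markers tested were higher. None of the mesenchyme and endothelium markers was at 0 in every sample of either group. The part of these cells in the COUP-TF levels was not tested.

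Nr2f6 was already well expressed in ESCs and rose mainly on the way to NPCs. WT samples held 19.5, 22.7 and 25.2 CPM as ESCs and 40.3, 43.5 and 45.9 as NPCs, then 41.7, 41.8 and 48.6 as PSA-NCAM+ cells and 50.4, 46.3 and 53.1 as neurons. Of the changes between neighbouring stages only the first passed, by 0.94 ± 0.15 on the log2 scale (FDR 1.24e-05), and the 3 later stages overlapped their neighbours. Neurons lay 0.21 ± 0.14 above NPCs, which was not called (FDR 0.191). Slow/slow samples held 27.9, 29.6 and 23.8 CPM as ESCs and 62.0, 72.2 and 62.4 as NPCs, then 58.0, 56.4 and 83.8 as PSA-NCAM+ cells and 80.9, 99.4 and 115 as neurons. From NPCs onwards every slow/slow sample exceeded every WT sample of its stage. The log2 change was 0.27 ± 0.15 in ESCs (FDR 0.15), 0.60 ± 0.15 in NPCs (FDR 0.00164), 0.59 ± 0.15 in PSA-NCAM+ cells (FDR 0.00191) and 0.98 ± 0.15 in neurons (FDR 1.3e-05).

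These differences have to be read beside those of the chromosome. The 865 tested genes of chromosome 8 were higher in slow/slow cells as a body, with median log2 changes from ESCs to neurons of 0.45, 0.49, 0.46 and 0.44, against medians over all genes between -0.06 and 0.01. When libraries were scaled only on genes of chromosome 8, the change in Nr2f6 was -0.19 ± 0.14 in ESCs, 0.13 ± 0.14 in NPCs (FDR 0.436) and 0.16 ± 0.14 in PSA-NCAM+ cells (FDR 0.322), and none of these was called. The change in neurons still passed, at 0.49 ± 0.14 (FDR 0.00417). Over all alternatives the FDR ran from 4.44e-06 to 0.436 in NPCs and from 0.000334 to 0.322 in PSA-NCAM+ cells. At the latter stage the call was also lost when only its own 6 samples were fitted (0.56, FDR 0.0681). Scaling the other members on their own chromosomes moved no value past the threshold, apart from Nr2f2 in ESCs, which then passed (0.48, FDR 0.0414).

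**Figure D2:**
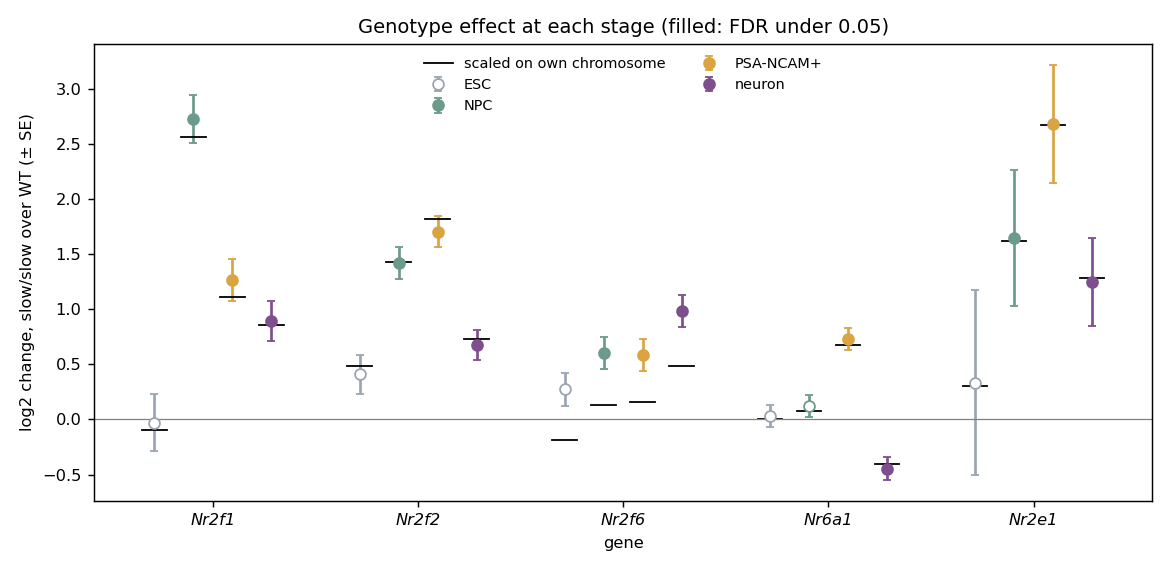
Log2 change of each member in slow/slow over WT cells at the 4 stages (points, ± SE, 3 samples per group), filled where the FDR was under 0.05, with a black bar at the value obtained when libraries were scaled only on genes of the member's own chromosome. The bar leaves the point clearly only for Nr2f6, which falls from 0.60 to 0.13 in NPCs.

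Reads that cross a spliced intron join the exons of 1 gene and so do not come from the overlapping gene. They were summed over the introns of each member listed in the splicing table, 3 for Nr2f6, and divided by the scaled library total. Nr2f6 had 11.3, 11.8 and 11.2 CPM of such reads in WT NPCs and 16.2, 17.7 and 17.4 in slow/slow NPCs. In WT neurons it had 13.4, 13.4 and 14.5 and in slow/slow neurons 21.7, 27.8 and 26.6. The groups did not overlap at either stage, and the log2 ratio of the means was 0.58 in NPCs and 0.88 in neurons, near the values from the gene counts. Ocel1 itself averaged 4.79 CPM ± 0.297 in WT against 4.06 CPM ± 0.456 in slow/slow NPCs and was not called in NPCs (FDR 0.19) or neurons (FDR 0.888). In ESCs it was higher with the slow polymerase (0.48 on the log2 scale, FDR 0.0141), and among PSA-NCAM+ cells it was lower (-0.78, FDR 0.000236).

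Spliced reads of the other members moved in the same directions as their gene counts from NPCs onwards. For Nr2f1 the log2 ratio from NPCs to neurons was 2.82, 1.13 and 0.87, and for Nr2f2 it was 1.29, 1.62 and 0.53. At each of these stages the WT and slow/slow samples did not overlap. For Nr6a1 it was 0.14, 0.79 and -0.54, without overlap, and in ESCs the samples of all 4 genes overlapped. These reads come from the same libraries as the gene counts and are no independent replicate.

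**Figure D3:**
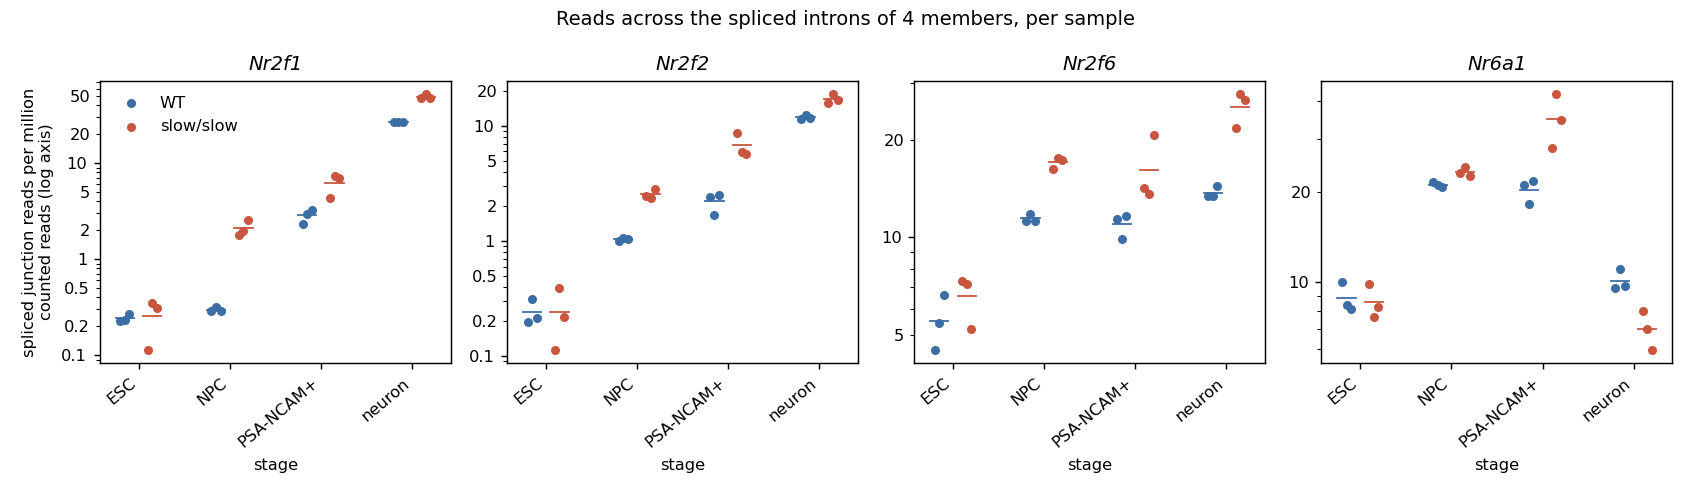
Reads that cross the spliced introns of 4 members, in CPM on a log axis, 1 point per sample with a bar at the group mean (3 samples per group). Slow/slow samples lie above WT samples from NPCs onwards for Nr2f1, Nr2f2 and Nr2f6, and below them for Nr6a1 in neurons, where the means were 10.1 in WT and 6.98 in slow/slow cells.

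Nr6a1 had a different course, with a peak at the middle stages. WT ESCs held 95.4, 93.0 and 86.6 CPM, WT NPCs 199, 198 and 199, WT PSA-NCAM+ cells 185, 159 and 170, and WT neurons 82.4, 92.8 and 91.5. Neurons and ESCs overlapped and the test did not separate them (FDR 0.696). PSA-NCAM+ cells lay above ESCs by 0.90 ± 0.10 on the log2 scale (FDR 1.63e-07), and NPCs above PSA-NCAM+ cells by only 0.21 ± 0.10, which was not called (FDR 0.102). Without replicate 1 of both PSA-NCAM+ groups that last step did pass (FDR 0.0151), as it did under upper-quartile scaling (FDR 0.0478).

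In slow/slow cells the order changed. Their samples held 99.5, 87.4 and 93.9 CPM as ESCs and 214, 222 and 212 as NPCs, then 246, 328 and 279 as PSA-NCAM+ cells and 77.0, 61.1 and 57.5 as neurons. The peak thus lay in PSA-NCAM+ cells, 0.40 ± 0.10 above NPCs (FDR 0.00415), and neurons fell below ESCs by a log2 step of 0.52 ± 0.10 (FDR 9.7e-05). Against WT cells the change was 0.03 ± 0.10 in ESCs (FDR 0.848) and 0.12 ± 0.10 in NPCs (FDR 0.318), although the samples of NPCs did not overlap. It was 0.73 ± 0.10 in PSA-NCAM+ cells (FDR 5.48e-06), or 1.66 times the WT level, and -0.45 ± 0.10 in neurons (FDR 0.00109), where every slow/slow sample lay below every WT sample. Under upper-quartile scaling the change in neurons shrank to -0.30 (FDR 0.0166). The PSA-NCAM+ change exceeded that in NPCs by 0.61 ± 0.14 (interaction FDR 0.00779).

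Nr2e1 was scarcely detected. Its counts were 5, 0 and 2 reads in WT ESCs, 5, 3 and 2 in WT NPCs, 4, 4 and 4 in WT PSA-NCAM+ cells and 23, 24 and 58 in WT neurons. Slow/slow counts were 3, 3 and 1 for ESCs and 11, 6 and 11 for NPCs, then 38, 27 and 19 for PSA-NCAM+ cells and 67, 77 and 43 for neurons. In WT cells the first 3 stages overlapped, and both genotypes were highest in neurons, where the mean level was still only 0.432 CPM in WT against 1.04 CPM in slow/slow cells. The ratio of slow/slow to WT reads, after library scaling and with an exact 95% interval that covers counting error only, was 3.17 in NPCs (1.50 to 7.32), 5.95 in PSA-NCAM+ cells (3.23 to 12.0) and 2.24 in neurons (1.75 to 2.87). In ESCs it was 1.25 (0.373 to 4.16), so a difference was not detectable at this depth.

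By edgeR the change in Nr2e1 was called in NPCs (log2 change 1.65 ± 0.62, FDR 0.0287), PSA-NCAM+ cells (2.68 ± 0.54, FDR 0.00028) and neurons (1.25 ± 0.40, FDR 0.0132). The call in NPCs was lost without WT replicate 2 (1.51, FDR 0.0881), without WT replicate 3 (1.33, FDR 0.115) or without slow/slow replicate 3 (1.32, FDR 0.115), and over all alternatives its FDR ran from 0.0159 to 0.115. In neurons it was lost without WT replicate 1 (1.11, FDR 0.0609) or WT replicate 2 (1.17, FDR 0.0502), in a range from 0.000335 to 0.0609. Slow/slow PSA-NCAM+ replicate 1 held 0.776 CPM against 0.288 and 0.207 in its companions, and without replicate 1 of both PSA-NCAM+ groups the change there was 1.78 (FDR 0.00466). Reads across the 7 introns of Nr2e1 numbered 0 in every WT ESC and NPC sample and at most 19 in any sample.

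Counted together, 0 of 5 members were called between genotypes in ESCs by edgeR, where 40.4% of all genes tested were called, 18.5% higher and 21.9% lower. A single member, Nr2f2, had an unadjusted p under 0.05 there, and DESeq2 called 0. In NPCs 4 of 5 were called and all were higher in slow/slow cells, against 56.7% of all genes called, 29.3% higher and 27.4% lower. In PSA-NCAM+ cells 5 of 5 were higher, against 56.7% called, 28.6% higher and 28.1% lower. In neurons 4 were higher and Nr6a1 lower, against 51.9% of genes called, 23.4% higher and 28.4% lower. Some of these calls did not hold in every alternative. Scaling on its own chromosome removed the call of Nr2f6 in NPCs and in PSA-NCAM+ cells. Some omissions of a single replicate removed the call of Nr2e1 in NPCs or in neurons. The split over all genes in neurons depended on scaling, with 45.2% of the called genes higher with TMM scaling and 59.2% under upper-quartile scaling, which also moved the median of all genes from -0.06 to 0.08. The directions of the 5 members did not change under that scaling. Along differentiation, 3 of 5 members were called between NPCs and ESCs in WT cells and 5 of 5 in slow/slow cells, where 65.6% and 62.3% of all genes were called. Between PSA-NCAM+ cells and NPCs the members called were 2 and 3 (background 41.3% and 42.3%), and between neurons and PSA-NCAM+ cells 4 and 5 (background 79.2% and 70.7%). Between neurons and NPCs, from which they were replated, the members called were 4 and 5 (background 80.2% and 75%). Neurons differed from ESCs in 4 and 5 members (background 82.8% and 82.5%), and PSA-NCAM+ cells from ESCs in 4 and 5 (background 71.2% and 73.4%). By the interaction test 2 members passed between NPCs and ESCs (24.6% of all genes) and 2 between PSA-NCAM+ cells and NPCs (14.6%). Between neurons and NPCs 3 passed (55.1%), as did 3 between neurons and ESCs (42.1%). The 5 genes were put forward with results of these data known, and 5 are too few to read such counts as a property of the group.

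Across the 24 samples the genes with the pattern most like each member were sought by Pearson's r of log2 CPM among 16626 other genes. The points share libraries and large stage differences, so high values are common. Nearest to Nr2f1 were Mecom (0.99), Sox5 (0.98) and Meis3 (0.98), all transcription factor genes. Mecom averaged 0.520 CPM in WT against 2.58 CPM in slow/slow NPCs, and 22.8 and 54.9 CPM in neurons, whereas Meis3 was at 74.5 and 77.1 CPM in neurons of the 2 genotypes. Nearest to Nr2f2 were Rcn2 (0.99), Ssbp2 (0.99) and the transcription factor gene Maf (0.99). Nr2f6 was most like Irx6 (0.96), Neurod1 (0.96) and Pax6 (0.95), factors of neural development, of which Irx6 lies on chromosome 8 too. Pax6 averaged 4.30 CPM in WT against 40.9 CPM in slow/slow NPCs.

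Nr6a1 was matched most closely by Lrrn4 (0.98), Map3k15 (0.96) and Utrn (0.95). Lrrn4 went from 4.93 CPM in WT ESCs to 29.7 CPM in WT PSA-NCAM+ cells and back to 5.77 CPM in WT neurons, with 52.8 CPM in slow/slow PSA-NCAM+ cells and 2.81 CPM in slow/slow neurons. Nr2e1 was closest to Hook3 (0.95), Dbx1 (0.95) and Purg (0.95), of which Hook3 and Purg lie on chromosome 8. Dbx1, a homeobox gene of neural progenitors, averaged 2.70 CPM in WT against 53.2 CPM in slow/slow neurons. Among the members themselves Nr2f1 and Nr2f2 were the closest pair (r = 0.95), and Nr6a1 had r between -0.22 and 0.13 with the other 4.

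The other nuclear receptors offered a frame for the members. Of 44 listed, 41 passed the count filter. In ESCs 0 were called higher and 13 lower in slow/slow cells, with a median log2 change of -0.22 against -0.02 over all genes. Among NPCs 9 rose and 13 fell, among PSA-NCAM+ cells 6 and 17, and among neurons 10 and 14, with medians of -0.09, -0.28 and -0.29 against 0.01, -0.01 and -0.06 over all genes. The lower receptors made up 31.7% of the 41 in ESCs and 31.7% in NPCs, and 41.5% at the PSA-NCAM+ stage, against 21.9%, 27.4% and 28.1% of all genes tested. In neurons 24.4% were higher and 34.1% lower, near the 23.4% and 28.4% of all genes. The split in neurons turned under upper-quartile scaling, an alternative added after seeing the data, to 11 higher and 7 lower.

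Several of these receptors had large changes. Vdr, the vitamin D receptor, averaged 5.37 CPM ± 0.554 in WT against 0.486 CPM ± 0.0306 in slow/slow ESCs, a log2 difference of -3.46 (FDR 0.00116), and was lower in slow/slow NPCs as well (-2.97, FDR 0.00109). In neurons it was higher, at 0.530 CPM ± 0.191 in WT against 2.17 CPM ± 0.622 in slow/slow cells (2.01, FDR 0.0222), a call lost without WT replicate 1 (1.81, FDR 0.0793), WT replicate 2 (1.94, FDR 0.0622) or slow/slow replicate 1 (1.81, FDR 0.068). Esrrb, an orphan receptor of the pluripotency network, fell from 478 CPM ± 26.1 to 93.1 CPM ± 10.7 in NPCs (FDR 5.09e-11). Rxrg, a retinoid X receptor, which is a dimer partner of many receptors, rose from 0.796 CPM ± 0.0539 to 5.06 CPM ± 0.714 in NPCs (FDR 0.000326). Pparg, the receptor of fat cell formation, stood at 24.9, 3.19 and 4.50 CPM in WT and at 1.39, 0.704 and 0.590 CPM in slow/slow PSA-NCAM+ cells. Its log2 change there was -3.64 (FDR 1.74e-05), and without WT replicate 1, which held most of the WT level, it was -2.14 (FDR 9.86e-06). It was higher in slow/slow neurons (1.38 CPM ± 0.135 against 8.78 CPM ± 1.32, FDR 0.000309). Hnf4a, a receptor of liver and gut endoderm, averaged 0.0509 CPM in WT against 1.05 CPM in slow/slow neurons (FDR 2.92e-06). Of 7 endoderm markers 6 were higher there as well and 1 was lower, against 23.4% and 28.4% of all genes. Their summed level overlapped between genotypes, at 49.6 to 57.8 CPM in WT and 48.1 to 68.9 CPM in slow/slow neurons.

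**Figure D4:**
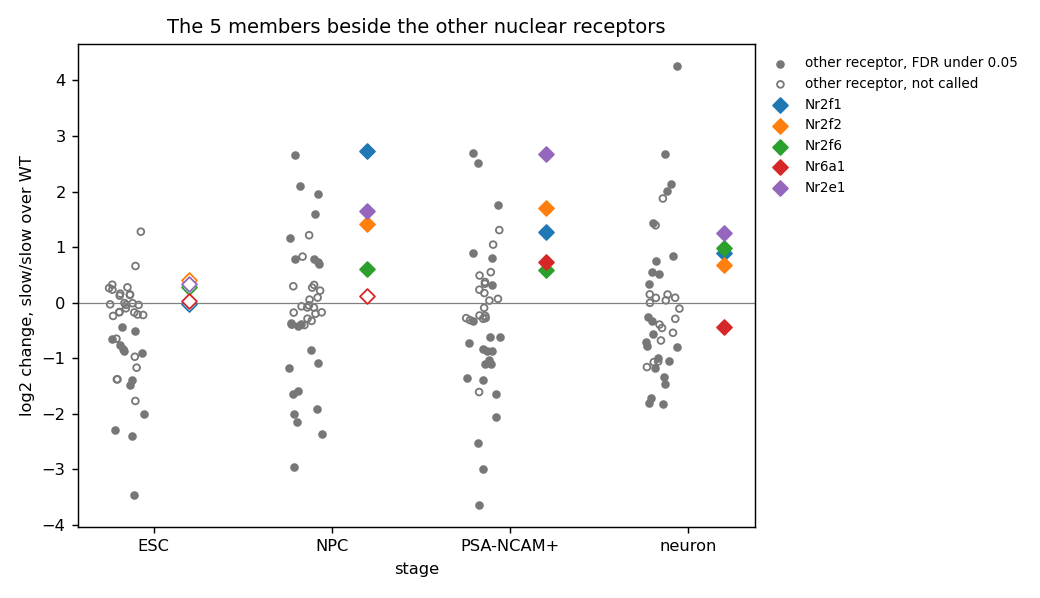
Log2 change in slow/slow over WT cells of the 41 other nuclear receptors that were tested (circles, filled where the FDR was under 0.05) and of the 5 members (diamonds, filled likewise) at the 4 stages. In NPCs and PSA-NCAM+ cells the members lie at or above 0, between 0.12 and 2.73, while most called receptors lie below 0.

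Nuclear receptors work through coactivators and corepressors, and 17 such partners were tested. In ESCs 1 was higher and 2 lower in slow/slow cells. Among NPCs 5 rose and 5 fell, among PSA-NCAM+ cells 5 and 3, and among neurons 1 and 7. Under upper-quartile scaling the count in neurons turned to 4 higher and 3 lower, that in NPCs was 3 higher, and 5 were lower in ESCs. With TMM scaling 18.5% of all genes tested were higher and 21.9% lower in ESCs, and 29.3% and 27.4% in NPCs. At the PSA-NCAM+ stage these shares were 28.6% and 28.1%, and in neurons 23.4% and 28.4%. Bcl11a, a zinc finger protein known to bind the COUP-TFs, was at 0.247 CPM ± 0.106 in WT against 8.52 CPM ± 0.854 in slow/slow NPCs (log2 change 5.09 ± 0.47, FDR 3.18e-08), and its relative Bcl11b rose from 1.06 CPM ± 0.0849 to 3.02 CPM ± 0.911 (FDR 0.000117). Zfpm2, known as FOG2 and a partner of GATA factors and COUP-TFII, fell from 2.10 CPM ± 0.282 to 0.355 CPM ± 0.0944 (FDR 0.000148). Atn1, a corepressor that interacts with TLX, fell from 261 CPM ± 11.1 to 164 CPM ± 5.96 in neurons (FDR 7.8e-06). Ncoa1, a coactivator of many receptors, fell in ESCs (34.9 CPM ± 3.25 to 19.9 CPM ± 1.01, FDR 8.08e-05) and in neurons (51.4 CPM ± 1.67 to 32.4 CPM ± 0.957, FDR 0.000312).

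Genes linked to each member by earlier work were examined next, with the caveat that the lists share genes with the cell type markers. Of 7 genes linked to the COUP-TFs, 5 were higher in slow/slow NPCs and 0 lower, with a median log2 change of 1.24 against 0.01 over all genes. Over all genes 29.3% were higher and 27.4% lower in NPCs. Fgf8, a signal of brain patterning, rose from 1.18 CPM ± 0.0941 to 7.97 CPM ± 1.25 in NPCs (FDR 1.67e-07) but fell from 8.67 CPM ± 0.521 to 2.27 CPM ± 0.471 in neurons (FDR 7.17e-06). Otx2, a factor of fore- and midbrain, rose in slow/slow NPCs (24.3 CPM ± 1.99 to 57.4 CPM ± 13.9, FDR 4.17e-06) and neurons (3.92 CPM ± 0.597 to 13.4 CPM ± 0.316, FDR 6.99e-08). Of these 7, 5 were higher and 0 lower in PSA-NCAM+ cells, and 3 were higher and 2 lower in neurons. In ESCs 2 were higher, among them the semaphorin receptor gene Nrp2 (9.88 CPM ± 0.531 to 24.9 CPM ± 0.804, FDR 9.43e-07), and 1 lower. Over all genes 28.6% were higher and 28.1% lower in PSA-NCAM+ cells, 23.4% and 28.4% in neurons, and 18.5% and 21.9% in ESCs. The counts of the 7 genes were not tested against these shares.

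Of 10 genes linked to GCNF, 7 were tested, and the germ cell genes Bmp15, Prm1 and Prm2 were under the count filter. None was higher and 2, Tdgf1 and Sox2, were lower in slow/slow ESCs, and both of these calls were lost whichever replicate was left out (FDR 0.0567 to 0.135). In NPCs 0 were higher and 3 lower, against 29.3% and 27.4% of all genes. In slow/slow PSA-NCAM+ cells 4 were lower and 1 higher, against 28.1% and 28.6% of all genes. The ESC markers moved beside them, with 4 of 6 lower and 0 higher at that stage and a summed level of 714 to 721 CPM in slow/slow against 1425 to 1970 in WT cells. Nanog, a pluripotency factor, fell from 260 CPM ± 30.6 to 80.2 CPM ± 24.7 there (FDR 1.04e-08), and the stem cell growth factor gene Fgf4 from 61.6 CPM ± 11.9 to 20.8 CPM ± 1.32 (FDR 5.63e-10). Both were lower in slow/slow NPCs too, Nanog by a log2 change of -1.58 ± 0.14 (FDR 3e-08). In neurons 4 were higher and 2 lower, and Pou5f1 fell from 82.8 CPM ± 15.0 to 36.7 CPM ± 4.06 (FDR 0.000214). The part of Nr6a1 in these levels was not tested. Over all genes 18.5% were higher and 21.9% lower in ESCs, and 23.4% and 28.4% in neurons. The counts of genes linked to GCNF were not tested against the shares over all genes.

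Of 9 genes linked to TLX, 8 were tested. In ESCs 1 was higher and 0 lower in slow/slow cells. Among NPCs 5 rose and 2 fell, among PSA-NCAM+ cells 2 and 2, and among neurons 3 and 3. These counts were not tested against the shares over all genes given above. Gfap, the filament of astrocytes, fell from 1.57 CPM ± 0.509 to 0.139 CPM ± 0.0426 in neurons (FDR 2.38e-06). Of 4 astrocyte markers tested there, 3 were lower and 1 was higher, against 28.4% and 23.4% of all genes.

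Splicing within the members was measured as percent spliced in (PSI), the share of reads that include an exon or keep an intron. After the coverage filters 18 events of 4 members could be compared in at least 1 stage, in 60 comparisons, and 0 events of Nr2e1. None passed a difference of 10 points with a posterior probability over 0.95, while 0.219% of all exons and introns passed in ESCs. The share was 0.888% in NPCs, 0.281% at the PSA-NCAM+ stage and 0.979% in neurons. Of alternative splice sites 0.113%, 0.878%, 0.206% and 0.46% passed from ESCs to neurons. By limma, used for exons and introns, 0 events of the members were called too.

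In 2 comparisons of the members the posterior probability passed while the difference stayed under 10 points. The 994-base intron of Nr2f6 at positions 73898654 to 73899647 of chromosome 8 (mm9, the assembly of the splicing table) was retained at 10.3%, 9.48% and 8.45% in WT NPCs and at 19.8%, 16.7% and 15.3% in slow/slow NPCs. The samples did not overlap, the difference was 7.85 points, and 299 to 711 reads lay behind each value. In ESCs the same intron was retained at 21.0% ± 4.36 in WT and 23.8% ± 0.447 in slow/slow cells. In PSA-NCAM+ cells it was retained at 16.7% ± 3.99 against 23.2% ± 5.91, with overlapping samples. Neurons were not compared, since slow/slow replicate 3 failed the filter. Their values were 8.44%, 7.28% and 10.5% in WT and 12.35%, 10.8% and 14.0% in slow/slow cells, without overlap. Whether reads of Ocel1 entered these values was not tested.

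A 45-base exon of Nr6a1, at 38728115 to 38728159 of chromosome 2 (mm9), was included at 93.8%, 95.6% and 94.7% in WT PSA-NCAM+ cells and at 100%, 99.5% and 100% in slow/slow cells, a difference of 5.17 points over 88 to 423 reads. At this stage it was thus nearly constant in both genotypes. In NPCs it was included at 96.1% ± 3.85 in WT and 100% in slow/slow cells, with overlapping samples. ESCs and neurons were not compared, since slow/slow replicate 3 failed the filters there. WT ESCs stood at 87.0%, 100% and 89.5% and WT neurons at 97.5%, 95.2% and 98.5%, while slow/slow samples of both stages were at 100%. The 42-base exon of Nr6a1 at 38740716 to 38740757 stood between 92.5% and 100% in all samples of NPCs and PSA-NCAM+ cells. The Nr2f6 exon of 95 bases at 73902288 to 73902382 of chromosome 8 was included at 98.3% to 99.7% on average in every group. At this depth no difference beyond 10 points was detected in the splicing of the members.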

How the data were processed

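Poly(A)+ RNA of 24 samples had been sequenced as 75-base read pairs and aligned to mm9 per the study's methods. The authors deposited counts per gene with group means in a unit inferred to be RPKM, and vast-tools percent spliced in (PSI) for exons, introns and splice sites. Columns with the authors' own fold changes and FDR, and a table of group PSI, were not used. Of 22667 genes listed, 1114 had no value and 16627 passed edgeR's filterByExpr. Counts were fitted with edgeR 4.0.16 (TMM, quasi-likelihood F test, 8 groups, 16 residual degrees of freedom, R 4.3.3), with Benjamini-Hochberg FDR over all genes tested. Totals of 32974432 to 104466886 counts per sample set the precision. Intervals cover counting error only.

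A difference in PSI was called beyond 10 points at a posterior probability over 0.95, from Beta distributions pooled over replicates. Spliced reads came from the intron events. DESeq2 1.42.0, limma 3.58.1, other scalings and filters, replicate blocks and omitted replicates were the alternatives. In PSA-NCAM+ cells same-numbered samples deviated together across the genotypes (r between 0.401 and 0.54). So did WT replicate 2 with slow/slow replicate 3 (0.399), and WT replicate 3 with slow/slow replicate 2 (0.241). Replicate 1 of both genotypes was thus set apart, and pairing by number between replicates 2 and 3 was not shown. Named genes were, per list and stage, among the at most 3 called genes with the largest changes and a mean of at least 1 CPM in either genotype, and for each member the 3 genes with the highest Pearson's r. Members, lists and tests were chosen with earlier results of these data known. Positions follow GRCm38 from GENCODE, and splicing events mm9. The scripts were tested on simulated data. Some genes of the lists are not reported here by name.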

Additional observations from a re-analysis of the deposited data

Results flagged for a closer look

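The genotype change of several members differed between stages by the interaction test of edgeR, adjusted over all genes. Between NPCs and ESCs 2 of 5 members passed, where 24.6% of all genes did. The log2 change in NPCs exceeded that in ESCs by 2.75 for Nr2f1 (FDR 7.59e-06) and by 1.01 for Nr2f2 (FDR 0.00287). Between PSA-NCAM+ cells and NPCs 2 passed against 14.6% of all genes, with a difference of -1.46 for Nr2f1 (FDR 0.00213) and 0.61 for Nr6a1 (FDR 0.00779).

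Between neurons and NPCs 3 passed against 55.1% of all genes. The difference was -1.83 for Nr2f1 (FDR 1.95e-05), -0.74 for Nr2f2 (FDR 0.00344) and -0.57 for Nr6a1 (FDR 0.00238). Between neurons and ESCs 3 passed against 42.1%, at 0.92 for Nr2f1 (FDR 0.0241), 0.71 for Nr2f6 (FDR 0.00922) and -0.48 for Nr6a1 (FDR 0.0116). Nr2f1 lost this last call without WT ESC replicate 3 (0.77, FDR 0.0819) or slow/slow ESC replicate 2 (0.89, FDR 0.0534). The comparison of PSA-NCAM+ cells with neurons, in which Nr6a1 had opposite signs, was not tested.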

How the results depend on the processing

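Of 263 alternative values of the members for the genotype effect 247 kept their direction and side of the threshold, as did 333 of 345 for the interactions and 667 of 690 for the stages. Of 256 alternative counts of genes called 253 stayed within 1.5 times the main count, as did 109 of 128 counts for PSI, and the cause of the others was not tested. With scaling on the own chromosome Nr2f6 was -0.19 in ESCs, 0.13 in NPCs and 0.16 in PSA-NCAM+ cells, and Nr2f2 passed in ESCs (0.48). With only the 6 samples of a stage Nr2f2 (0.43, FDR 0.0356) and Nr2f6 (0.29, FDR 0.0173) passed in ESCs, Nr2f6 no longer in PSA-NCAM+ cells (0.56), and 3641 genes were called there against 9424. With upper-quartile scaling the Nr2f6 steps were -0.014 (WT PSA-NCAM+ over NPC), -0.067 (WT neurons over NPC), -0.054 (WT neurons over PSA-NCAM+) and -0.050 (slow/slow PSA-NCAM+ over NPC), the interaction of neurons with NPCs passed for Nr2f6 (0.56), and that with ESCs no longer for Nr6a1 (-0.31, FDR 0.0873). That scaling gave 57.3% higher among called interactions of neurons with NPCs and 63.3% with ESCs, against 44.9% and 48.7%.

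Leaving out 1 replicate gave genotype changes of -0.13 to 0.14 for Nr2f1, 0.34 to 0.55 for Nr2f2 and -0.032 to 1.29 for Nr2e1 in ESCs, and for Nr2e1 1.32 to 2.21 in NPCs and 1.11 to 1.48 in neurons. Interactions ran from 0.77 to 1.04 for Nr2f1 and -0.019 to 1.3 for Nr2e1 (neurons and ESCs), 0.25 to 0.51 for Nr2f6 (neurons and NPCs) and -0.20 to 0.10 for Nr2f6 (PSA-NCAM+ cells and NPCs). Genes called in the last ran from 1690 to 4248, against 2421, with 4248 without slow/slow PSA-NCAM+ replicate 1, and 5200 without replicate 1 of both groups, where Nr2f6 was 0.035. Stage steps that turned in some omissions ran, for Nr2e1, from -0.22 to 1.28 (WT NPC over ESC) and from -0.21 to 0.68 (WT PSA-NCAM+ over NPC), and for Nr2f6 from -0.044 to 0.082 (WT) and from -0.16 to 0.14 (slow/slow) for PSA-NCAM+ over NPC.

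Past 15 points, 110, 551, 176 and 634 exons and introns and 8, 115, 25 and 57 splice sites were called in ESCs, NPCs, PSA-NCAM+ cells and neurons, against 202, 927, 306 and 1089 and 25, 211, 51 and 110. By limma 85 were called in ESCs and 2 in PSA-NCAM+ cells, and with a replicate block 121 and 188. Without 1 replicate the sites ran from 27 to 42 in ESCs and 55 to 133 in PSA-NCAM+ cells, and exons and introns there from 267 to 666, with 666 without slow/slow replicate 1. The replicate block in edgeR moved Nr2e1 in slow/slow NPCs over ESCs to 1.65 (FDR 0.056) and changed no other call of a member. Outside PSA-NCAM+ cells same-numbered samples did not deviate together (r from -0.0841 to 0.0677). The depth limited Nr2e1 above all, with 0 to 77 reads per sample.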
